A study of Mus musculus with 8 samples.

Results

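The aminoacyl-tRNA synthetase genes of mouse myeloid progenitors were compared between cells that received a Trim27 virus and cells that received a GFP control virus. The members were the rows of 36 symbols in the table of raw read counts, all of which were present among its 33435 named genes. A symbol ending in 2 was taken as a mitochondrial enzyme (16 genes) and the others as cytosolic (20 genes). For the Trim27 group, hematopoietic stem and progenitor cells were taken from E14.5 fetal livers of C57BL/6J mice, infected with the Trim27 virus, and sorted as myeloid progenitors, which gave 4 libraries. For the GFP group, the same kind of cells from the same strain and day were infected with the GFP control virus and sorted in the same way, which gave another 4 libraries. The kind of virus, its promoter, the sorting gate, the time after infection and the number of animals behind a library are not stated in the labels. The p-values therefore measure how far these 8 libraries vary, and that variation may be technical.

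Each aminoacyl-tRNA synthetase joins an amino acid to the tRNAs that carry it, which is the step that sets the genetic code. Class I and class II enzymes have unrelated catalytic domains. Proteins made in the cytosol and in the mitochondrion are mostly served by separate nuclear genes, but Gars and Kars each encode the enzyme of both compartments. In the cytosol several enzymes are held in a multisynthetase complex with the scaffold proteins encoded by Aimp1, Aimp2 and Eef1e1. Mitochondria have no glutaminyl enzyme of their own, and an amidotransferase makes their glutaminyl-tRNA from glutamyl-tRNA. Transcription of several cytosolic enzymes is known to be raised by the factor ATF4 when amino acids are short.

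Promoters were searched for the composite element of ATF4 and C/EBP factors because it is known from amino acid response genes and bears on which synthetase genes could move together. RefSeq promoters, from 250 bases before to 50 bases after each gene's start (build GRCm38.p6), were matched for 13 of the 20 cytosolic and 14 of the 16 mitochondrial genes. No promoter was searched for Cars, Hars, Lars, Nars, Rars, Vars, Wars, Hars2 and Pars2. The motif TGATGNAA, read on both strands, was found in 5 of those 13 cytosolic promoters (Aars, Gars, Iars, Tars and Yars) and in 0 of those 14 mitochondrial ones. It was found in 3.97% of all 32851 promoters of that length. The 5 promoters with a match are printed here, 5′ to 3′ on the gene's strand, with the matched bases in capitals, followed by 1 of the promoters listed for Aars2, the mitochondrial counterpart of Aars, which has none.
Aars (chr8:111033592-111033891, plus strand): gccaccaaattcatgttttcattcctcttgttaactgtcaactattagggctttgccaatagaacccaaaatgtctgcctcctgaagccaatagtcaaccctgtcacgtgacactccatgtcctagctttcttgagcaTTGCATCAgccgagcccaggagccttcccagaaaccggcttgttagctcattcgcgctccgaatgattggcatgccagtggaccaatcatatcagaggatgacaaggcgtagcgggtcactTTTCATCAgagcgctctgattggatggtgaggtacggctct
Gars (chr6:55037751-55038050, plus strand): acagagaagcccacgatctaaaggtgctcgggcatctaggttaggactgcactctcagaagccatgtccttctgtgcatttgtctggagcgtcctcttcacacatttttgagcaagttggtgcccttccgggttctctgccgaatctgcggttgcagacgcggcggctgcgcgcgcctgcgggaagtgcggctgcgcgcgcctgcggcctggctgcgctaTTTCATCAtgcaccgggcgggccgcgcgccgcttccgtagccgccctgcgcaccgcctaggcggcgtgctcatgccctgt
Iars (chr13:49681880-49682179, plus strand): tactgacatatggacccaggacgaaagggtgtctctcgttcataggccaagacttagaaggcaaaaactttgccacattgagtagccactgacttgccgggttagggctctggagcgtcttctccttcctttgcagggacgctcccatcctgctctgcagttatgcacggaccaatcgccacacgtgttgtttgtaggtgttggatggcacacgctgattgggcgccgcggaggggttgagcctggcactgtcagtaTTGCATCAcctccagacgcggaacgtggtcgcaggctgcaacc
Tars (chr15:11399609-11399908, minus strand): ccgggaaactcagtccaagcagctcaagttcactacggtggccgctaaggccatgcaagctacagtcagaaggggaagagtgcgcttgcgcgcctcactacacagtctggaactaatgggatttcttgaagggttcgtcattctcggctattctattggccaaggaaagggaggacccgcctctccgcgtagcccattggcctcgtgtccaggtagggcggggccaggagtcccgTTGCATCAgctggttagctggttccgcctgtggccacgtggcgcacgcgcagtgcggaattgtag
Yars (chr4:129189653-129189952, plus strand): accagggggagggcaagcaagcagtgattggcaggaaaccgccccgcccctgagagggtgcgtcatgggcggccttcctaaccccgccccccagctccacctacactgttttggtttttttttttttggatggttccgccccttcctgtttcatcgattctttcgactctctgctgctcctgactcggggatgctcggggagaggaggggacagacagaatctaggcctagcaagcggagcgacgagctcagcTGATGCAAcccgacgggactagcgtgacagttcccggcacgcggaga
Aars2 (chr17:45506582-45506881, plus strand): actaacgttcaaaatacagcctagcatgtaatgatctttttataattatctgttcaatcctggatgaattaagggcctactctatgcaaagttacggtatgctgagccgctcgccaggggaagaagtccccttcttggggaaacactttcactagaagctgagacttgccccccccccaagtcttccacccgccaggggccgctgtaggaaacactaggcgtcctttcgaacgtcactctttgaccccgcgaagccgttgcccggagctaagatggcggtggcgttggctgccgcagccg
The Aars promoter held 2 matches, which start 112 bases before and 10 bases into the transcript. A match is a run of letters and does not show that a factor binds there.

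Total counts were 10551137 to 16366571 in the Trim27 libraries and 9257889 to 10747794 in the GFP libraries. Expression is given as CPM, the counts of a gene scaled to a common library size with TMM factors, which assume that most genes do not differ. The quasi-likelihood test of edgeR was used on 11040 genes, with p-values adjusted by the Benjamini-Hochberg method and a threshold of 0.05. Most genes passed it, 85.5% in all, 47.5% higher and 38% lower in the Trim27 group, and the groups did not overlap for 80.7% of genes. A call of any gene or list has to be read against these shares. Trim27 itself had 268, 311, 292 and 301 CPM in the Trim27 libraries, against 191, 184, 177 and 171 CPM in the GFP libraries, a log2 fold change of 0.70 (SE 0.05, adjusted p = 7.4e-13 by edgeR). The 10 myeloid progenitor markers summed to 2251 to 2488 CPM in the Trim27 libraries and 2036 to 2152 CPM in the GFP libraries, with 2 of them higher, 7 lower and 1 not passing in the Trim27 group. Csf2rb alone averaged 1193 CPM in the Trim27 group and 472 CPM in the GFP group, while the granule genes Mpo and Prtn3 were among those that fell. Erythroid markers (7 genes) summed to 1275 to 1451 CPM in the Trim27 libraries and 1747 to 1796 CPM in the GFP libraries, with 3 higher (Gata1, Tfrc and Alas2) and 4 lower, and Klf1 averaged 502 ± 40.5 against 911 ± 21 CPM in the Trim27 and GFP groups. Megakaryocyte markers (5 genes) summed to 763 to 803 CPM in the Trim27 libraries and 984 to 1062 CPM in the GFP libraries, with 1 higher (Itga2b), 2 lower and 2 not passing. B cell markers (6 genes, 5 tested) summed to 33.2 to 43.9 CPM in the Trim27 libraries and 50.2 to 113 CPM in the GFP libraries, with 0 higher, 4 lower and 1 not passing. Mast cell and basophil markers (4 genes, 3 tested) summed to 78.6 to 92.7 CPM in the Trim27 libraries and 33.7 to 39.3 CPM in the GFP libraries, and the 3 tested were higher. Among these 3, Ms4a2 (439 counts over the Trim27 libraries and 4 over the GFP libraries) passed the filter only through the Trim27 libraries. Of the 5 hepatocyte markers 4, Alb, Ttr, Apob and Hnf4a, had 0 counts in every library, and Afp gave 8.06 to 10.2 CPM in the Trim27 libraries and 1.2 to 1.7 CPM in the GFP libraries. Of the 5 endothelial and stromal markers 4 had 0 counts, and Col1a1 had 2 counts in the GFP libraries. The part of these other lineages in the results below was not tested. In these sorted populations a change in the share of a cell type and a change in RNA per cell cannot be told apart.

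All 36 synthetase genes were abundant enough to be tested, Wars2 only through its Trim27 libraries. In the Trim27 group 15 were higher and 17 lower than in the GFP group, and 4 (Kars, Lars, Pars2 and Rars2) did not pass. The groups did not overlap for 14 genes that were higher and 17 that were lower, beside 45.3% higher and 35.4% lower over all genes. These shares are near those of all genes, so the number of changes does not mark out the family. Of the 20 cytosolic genes 9 rose and 9 fell. Their median log2 fold change was 0.02, against 0.14 over all genes tested. Of the 16 mitochondrial genes 6 rose and 8 fell, and their median was -0.55. That median lay between widely spaced genes and was -0.24 without Lars2 and also -0.24 among the 11 genes without exon overlap. With library size alone as scaling, which moved the median of all genes to 0.44, the cytosolic counts were 13 higher and 5 lower (median 0.32) and the mitochondrial counts 7 higher and 8 lower (median -0.24). With each library's trend on transcript length removed they were 6 higher and 12 lower (median -0.31), and 3 higher and 11 lower (median -0.83). With only the trend of abundant genes removed they were 10 higher and 7 lower (median 0.10), and 7 higher and 8 lower (median -0.48).

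**Figure D1:**
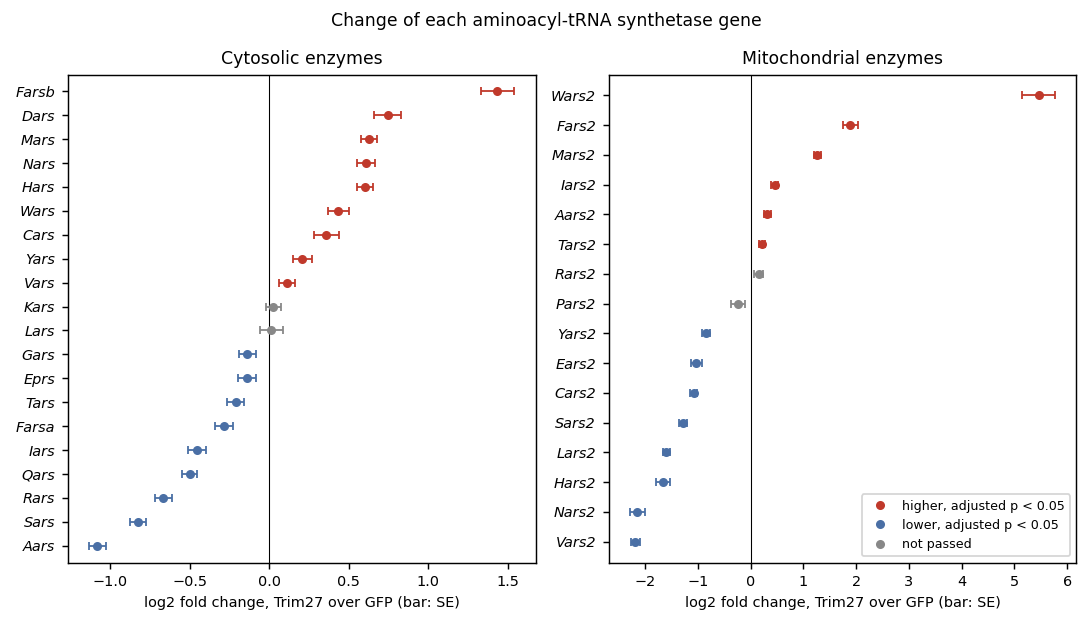
Log2 fold change of each gene, Trim27 over GFP (horizontal axis, bars are standard errors, 4 libraries in each group), for cytosolic enzymes on the left and mitochondrial enzymes on the right. The cytosolic values lie between -1.08 (Aars) and 1.43 (Farsb), and the mitochondrial values between -2.19 (Vars2) and 5.46 (Wars2), on axes of different range.

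Among the cytosolic enzymes, Aars, Sars, Rars, Qars and Iars fell most. Aars, which charges alanine tRNA and also edits mischarged tRNA, had 117, 131, 134 and 123 CPM in the Trim27 libraries, against 270.1, 266, 269.6 and 263 CPM in the GFP libraries. It was 2.11-fold lower in the Trim27 group, with a log2 fold change of -1.08 (SE 0.05), and the libraries of each group stood close together and far from the other group. Sars, the seryl enzyme, had 137, 140.3, 145 and 137 CPM in the Trim27 libraries, against 255, 237, 254 and 244 CPM in the GFP libraries. Each Trim27 library lay below every GFP library, and the log2 fold change was -0.82 (SE 0.05). For Rars, the arginyl enzyme of the multisynthetase complex, the values were 112, 111, 104 and 113 CPM in the Trim27 libraries, against 170.2, 178, 176 and 174 CPM in the GFP libraries. These groups were also apart, by -0.67 (SE 0.05) on the log2 scale. Qars, the glutaminyl enzyme, had 258, 277, 266 and 266 CPM in the Trim27 libraries, against 390.1, 372, 366 and 377 CPM in the GFP libraries, and Iars, the isoleucyl enzyme, had 109, 108, 106 and 109 CPM in the Trim27 libraries, against 148, 148, 138 and 157 CPM in the GFP libraries. Both belong to the complex, and neither overlapped between the groups (log2 fold changes -0.50, SE 0.05 and -0.45, SE 0.06). The adjusted p of these 5 genes by edgeR ran from 1.5e-17 for Aars to 1.1e-08 for Iars. Of these 5 genes, Aars and Iars carry the printed TGATGNAA motif, Sars and Qars had no match, and the promoter of Rars was not searched. In the GENCODE vM21 annotation 1326 of the 5750 exonic bases of Aars are shared with Exosc6 on the same strand, so part of the Aars counts could come from that gene.

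The largest cytosolic rise was that of Farsb, the beta subunit of phenylalanyl-tRNA synthetase, which had 52.2, 54.8, 61.1 and 55.3 CPM in the Trim27 libraries, against 24.3, 15.6, 18.8 and 24 CPM in the GFP libraries. Every Trim27 library was above every GFP library, and the fold change was 2.7 (log2 1.43, SE 0.11). It was the only cytosolic gene with an at least 2-fold rise that passed, and Aars the only one with such a fall. Farsa, the catalytic alpha subunit of the same enzyme, was lower in the Trim27 group (201 ± 16.3 against 244 ± 9.34 CPM, log2 fold change -0.28), although its value was 0.02 (adjusted p = 0.735 by edgeR) with library size alone as scaling. The subunits form the enzyme in equal number. Per kilobase of exon, the ratio of Farsa to Farsb CPM was 4.07, 4.64, 4.1 and 4.5 in the Trim27 libraries, against 12.1, 18.2, 16.5 and 12.1 in the GFP libraries. The ratio was lower in every Trim27 library than in any GFP library. Exons of Farsb share 248 bases with Sgpp2 on the opposite strand.

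Dars, Mars, Nars and Hars followed. Dars, the aspartyl enzyme of the complex, had 124, 94.5, 93.2 and 102 CPM in the Trim27 libraries, against 55, 65.7, 59.1 and 67 CPM in the GFP libraries. All Trim27 libraries were above the GFP libraries, with replicate 1 above the other Trim27 libraries, and the log2 fold change was 0.74 (SE 0.08). Mars, which charges both initiator and elongator methionine tRNA, had 223, 216, 209 and 223 CPM in the Trim27 libraries, against 144, 143, 142 and 135 CPM in the GFP libraries, a log2 fold change of 0.62 (SE 0.05) without overlap of the groups. Exons of Mars share 68 bases with Ddit3 on the opposite strand, and Ddit3 changed in the other direction, as described below. Nars, the asparaginyl enzyme, had 144, 152, 147 and 143 CPM in the Trim27 libraries, against 94.5, 100.1, 91.2 and 99.6 CPM in the GFP libraries. Its groups were apart by 0.61 (SE 0.06) on the log2 scale, close to the value of Hars, the histidyl enzyme, at 0.60 (SE 0.05). For Hars the values were 239, 248, 239.8 and 240.4 CPM in the Trim27 libraries, against 152, 167, 158 and 161 CPM in the GFP libraries, with no overlap. The adjusted p by edgeR was 9.1e-09 for Dars, 2.0e-12 for Mars, 3.1e-11 for Nars and 3.4e-12 for Hars, and 5.5e-13 for Farsb.

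The other cytosolic enzymes moved less. Wars, the tryptophanyl enzyme (104 ± 6.01 against 76.6 ± 6.41 CPM in the Trim27 and GFP groups), Cars, the cysteinyl enzyme (49.2 ± 1.83 against 38.3 ± 1.93 CPM), and Yars, the tyrosyl enzyme (100.02 ± 4.68 against 86.7 ± 3.74 CPM), rose by 0.43, 0.36 and 0.21 on the log2 scale (SD, n = 4 each). With the length trend removed the value of Cars was 0.05 (adjusted p = 0.568 by edgeR) and that of Yars -0.04 (adjusted p = 0.514 by edgeR). Vars, the valyl enzyme and the synthetase gene with most counts in the Trim27 group, averaged 769.8 ± 66 CPM in the Trim27 group and 713 ± 17.7 CPM in the GFP group, and its groups overlapped. Its adjusted p of 0.0483 by edgeR was close to the threshold, and the call was lost by limma-voom (adjusted p = 0.067), with the replicate block (adjusted p = 0.108), and without any 1 library other than Trim27 replicate 1 (adjusted p up to 0.411). After the length trend was removed Vars was lower in the Trim27 group, at -0.30 (adjusted p = 3.2e-05). Tars, the threonyl enzyme, fell slightly (136 ± 3.44 against 158 ± 8.43 CPM, log2 fold change -0.21), but was at 0.09 (adjusted p = 0.0985 by edgeR) under library size alone. Eprs, a fused enzyme that charges glutamate and proline tRNA, averaged 127 ± 4.33 CPM in the Trim27 group and 139 ± 6.39 CPM in the GFP group (log2 fold change -0.14, adjusted p = 0.0205 by edgeR). The groups of Eprs overlapped, and its call was lost without GFP replicate 2 (adjusted p = 0.0597) or GFP replicate 4 (adjusted p = 0.0648). By edgeR it was also lost with DESeq2 size factors (adjusted p = 0.0619), upper-quartile factors (adjusted p = 0.123), no filter (adjusted p = 0.0886) and the trend of abundant genes removed (adjusted p = 0.0639). The DESeq2 Wald test lost it too (adjusted p = 0.0526). Library size alone gave Eprs a value of 0.16 (adjusted p = 0.00554 by edgeR). Lars, the leucyl enzyme, averaged 75.4 ± 4.37 CPM in the Trim27 group and 74.7 ± 7.64 CPM in the GFP group, a log2 fold change of 0.01 with a 95% interval of -0.13 to 0.15, but it passed at 0.32 (adjusted p = 1.8e-04) when scaled by library size only, and at -0.39 (adjusted p = 1.7e-05) after the length trend was removed. Leaving out 1 library moved it between -0.049 and 0.087.

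The enzymes that serve both compartments moved little with TMM scaling. Gars, the glycyl enzyme, had 153, 171, 171 and 169 CPM in the Trim27 libraries, against 180.5, 181, 194 and 176 CPM in the GFP libraries. All Trim27 libraries lay below the GFP libraries, with replicate 1 the lowest, and the log2 fold change was -0.14 (SE 0.05, adjusted p = 0.0183 by edgeR). That call was lost without GFP replicate 3 (adjusted p = 0.0797) and with upper-quartile factors (adjusted p = 0.113). By edgeR it was also lost with DESeq2 size factors (adjusted p = 0.0559), no filter (adjusted p = 0.0721) and the trend of abundant genes removed (adjusted p = 0.575). The DESeq2 Wald test lost it too (adjusted p = 0.0552). Library size alone turned the value of Gars to 0.16 (adjusted p = 0.00427 by edgeR). Kars, the lysyl enzyme, had 377, 415, 404 and 391 CPM in the Trim27 libraries, against 406, 388, 379.9 and 387 CPM in the GFP libraries. These groups overlapped, and the log2 fold change of 0.02 had a 95% interval of -0.07 to 0.12. Under library size alone it was 0.33 (adjusted p = 7.2e-08), and after removal of the length trend it was -0.14 (adjusted p = 0.0099). With only the trend of abundant genes removed it was 0.15 (adjusted p = 0.00205 by edgeR).

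By role, the 8 enzymes of the multisynthetase complex (Eprs, Iars, Lars, Mars, Qars, Rars, Kars and Dars) held 2 rises, 4 falls and 2 that did not pass, with a median log2 fold change of -0.06. The 12 cytosolic enzymes outside it held 7 rises and 5 falls, with a median of 0.16. Over all genes tested 47.5% were higher and 38% lower, with a median of 0.14. Class I cytosolic enzymes, leaving out the fused Eprs, rose in 5 of 9 cases and fell in 3, and class II enzymes rose in 4 of 10 and fell in 5. Neither division separated the genes that rose from those that fell, and no test of these divisions was made.

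**Figure D2:**
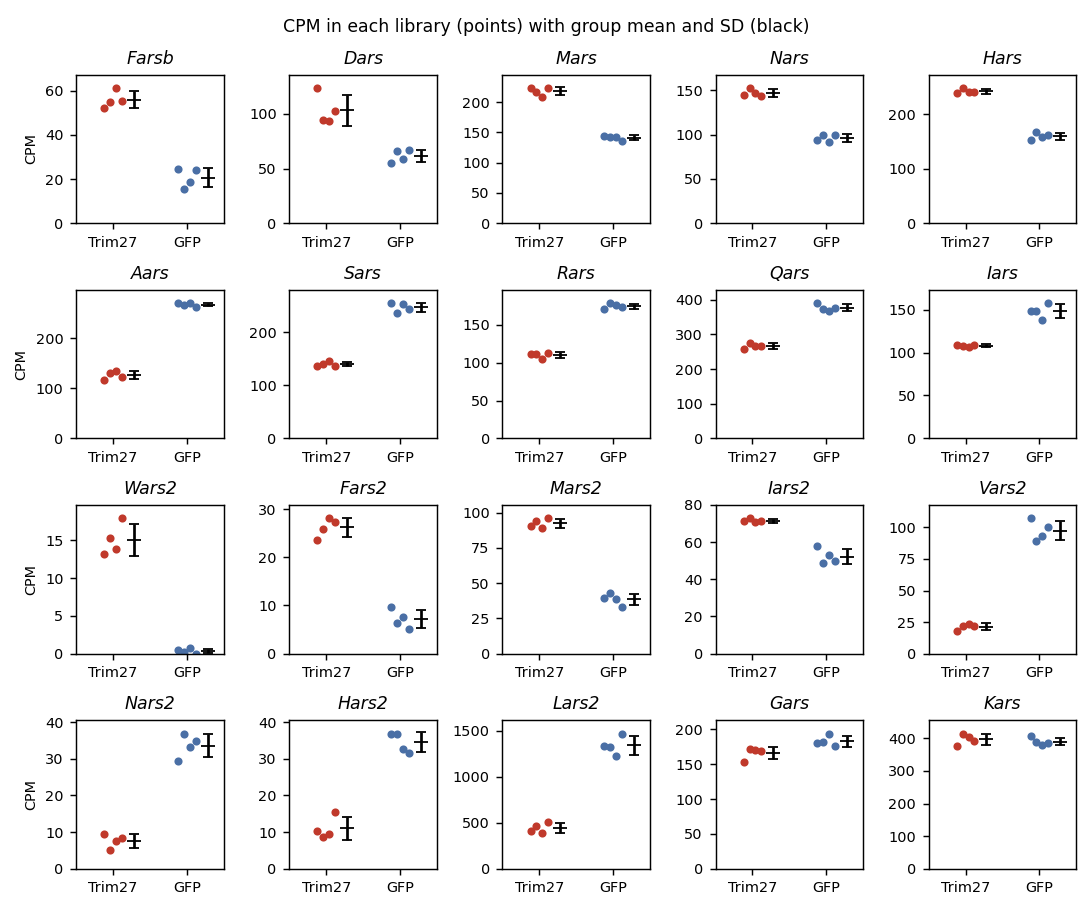
CPM of the 20 genes described library by library (vertical axes from 0, in CPM, of different range), with Trim27 libraries in red, GFP libraries in blue, and the mean ± SD of each group in black (n = 4 each). In 19 of the 20 panels the groups do not overlap, Kars being the exception. All but Gars and Kars were chosen as the largest called changes, which favors a lack of overlap. Over all genes tested the groups did not overlap for 80.7%.

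Among the mitochondrial enzymes 3 rose and 7 fell by at least 2-fold, and among the cytosolic ones 1 rose and 1 fell so far, against 31.3% higher and 16% lower over all genes. This difference between the compartments was not tested. The falls were led by Vars2, the valyl enzyme, which had 17.8, 22.1, 23.6 and 22 CPM in the Trim27 libraries, against 107, 89.5, 93 and 100.5 CPM in the GFP libraries. Every Trim27 library was far below every GFP library, a 4.56-fold difference (log2 -2.19, SE 0.08). Exons of Vars2 share 296 bases with Gm20483 on the opposite strand. Nars2, the asparaginyl enzyme, had 9.38, 5.12, 7.46 and 8.49 CPM in the Trim27 libraries, against 29.4, 36.9, 33.1 and 35 CPM in the GFP libraries. It was 4.43-fold lower in the Trim27 group, again without overlap (log2 -2.15, SE 0.14). Hars2, the histidyl enzyme, had 10.4, 8.61, 9.61 and 15.5 CPM in the Trim27 libraries, against 36.9, 36.7, 32.6 and 31.7 CPM in the GFP libraries. Trim27 replicate 4 was the highest of its group but still below every GFP library, and the log2 fold change was -1.66 (SE 0.14). The genes Hars and Hars2 lie next to each other on opposite strands with 195 exonic bases in common, so reads there cannot be assigned without strand information. Hars rose and Hars2 fell, and the part of the shared bases in either value was not tested.

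Lars2, the mitochondrial leucyl enzyme, stood apart by its level. It had 413, 461, 389.9 and 507 CPM in the Trim27 libraries, against 1338, 1325, 1229 and 1470 CPM in the GFP libraries. The Trim27 libraries were all below the GFP libraries, by 3.03-fold (log2 -1.60, SE 0.07). In the GFP group it was the synthetase gene with most counts of either compartment. Lars2 made up 39.9, 40.5, 36.7 and 42.9 percent of the summed CPM of the mitochondrial enzymes in the Trim27 libraries, against 61, 62.3, 60.1 and 64.3 percent in the GFP libraries. Per kilobase of exon it was at 114 CPM in the Trim27 group and 344 CPM in the GFP group, while the next mitochondrial gene, Sars2, was at 32.5 and 79.4 CPM.

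The remaining falls were those of Sars2, the seryl enzyme (60.7 ± 6.37 against 148 ± 8.59 CPM in the Trim27 and GFP groups), Cars2, the cysteinyl enzyme (42.5 ± 3.61 against 89.97 ± 1.56 CPM), Ears2, the glutamyl enzyme (15.6 ± 1.88 against 31.9 ± 1.93 CPM), and Yars2, the tyrosyl enzyme (33.3 ± 1.12 against 60.2 ± 2.63 CPM), all with SD and n = 4 each. Their log2 fold changes were -1.29, -1.08, -1.03 and -0.85, and no Trim27 library reached a GFP library in any of them. The adjusted p of the 8 mitochondrial falls by edgeR ran from 1.1e-19 for Vars2 to 4.9e-10 for Ears2. The 8 mitochondrial falls kept their direction and their call under every scaling, filter, tool and left-out library tried.

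Wars2, the tryptophanyl enzyme, had the largest change of all members. Its values were 13.2, 15.3, 13.9 and 17.9 CPM in the Trim27 libraries, against 0.457, 0.213, 0.717 and 0 CPM in the GFP libraries. These rest on 936 counts over the Trim27 libraries and 12 counts over the GFP libraries, where 1 library had 0. The fitted log2 fold change was 5.46 (SE 0.31), a 43.9-fold rise whose size depends on those 12 counts. The adjusted p by edgeR was 8.1e-16. Wars2 passed the filter only through the Trim27 libraries, where it is high. Changes of this kind were common among genes of its abundance. Among all genes with a mean under 2 log2 CPM, 81.9% had a called change of at least 2-fold, and the median absolute log2 fold change was 4.38. Genes this low can enter the test through 1 group alone, which favors large changes, and the part of the filter in these values was not tested.

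Fars2, the phenylalanyl enzyme, which unlike its cytosolic counterpart is a single chain, had 23.6, 25.9, 28.1 and 27.4 CPM in the Trim27 libraries, against 9.6, 6.28, 7.53 and 5.14 CPM in the GFP libraries. It was 3.7-fold higher in the Trim27 group with no overlap (log2 1.89, SE 0.15), and shares 115 exonic bases with Lyrm4 on the opposite strand. Mars2, the methionyl enzyme, had 90.2, 93.8, 89.2 and 95.9 CPM in the Trim27 libraries, against 39.2, 42.8, 38.4 and 33.2 CPM in the GFP libraries, a 2.4-fold rise. The Mars2 libraries of each group were tight and apart (log2 1.26, SE 0.07). The adjusted p by edgeR was 6.7e-13 for Fars2 and 1.1e-15 for Mars2. Iars2, the isoleucyl enzyme, had 71.2, 72.8, 70.6 and 71.3 CPM in the Trim27 libraries, against 57.7, 48.7, 52.9 and 49.7 CPM in the GFP libraries. It rose by 0.45 (SE 0.07) on the log2 scale without overlap, but 2034 of its 6670 exonic bases are shared with Rab3gap2 on the opposite strand, and the value was -0.18 (adjusted p = 0.0188 by edgeR) with the length trend removed. Aars2, the alanyl enzyme (85.2 ± 3.95 against 68.7 ± 5.6 CPM, log2 fold change 0.31), and Tars2, the threonyl enzyme (131 ± 5.16 against 113 ± 2.54 CPM, log2 fold change 0.21), also rose, and they were at -0.02 (adjusted p = 0.747) and -0.21 (adjusted p = 0.00141) by edgeR with the length trend removed. The enzymes that did not pass were Pars2, the prolyl enzyme (12.2 ± 1.41 against 14.4 ± 0.785 CPM, log2 fold change -0.24, 95% interval -0.50 to 0.03), and Rars2, the arginyl enzyme (35.8 ± 1.27 against 32.3 ± 2.02 CPM, log2 fold change 0.15, 95% interval -0.02 to 0.32). Rars2 was at 0.45 and passed under library size alone (adjusted p = 2.2e-05), and Pars2 was at -0.51 and passed after removal of the length trend (adjusted p = 8.8e-04). By edgeR Rars2 also passed with upper-quartile factors (adjusted p = 0.0347) and with the trend of abundant genes removed (adjusted p = 0.00142). The DESeq2 Wald test called Rars2 too (adjusted p = 0.0486).

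In sum over the family, the cytosolic enzymes took 3641 ± 121 CPM in the Trim27 group and 3796 ± 33.5 CPM in the GFP group (SD, n = 4 each), and the mitochondrial enzymes took 1104 ± 67.8 CPM in the Trim27 group and 2163 ± 101 CPM in the GFP group. The ratio of the sums, cytosolic over mitochondrial, was 3.35, 3.29, 3.48 and 3.09 in the Trim27 libraries, against 1.75, 1.78, 1.84 and 1.66 in the GFP libraries. Leaving out Lars2, which was done after its level had been seen, the ratio was 5.58, 5.53, 5.5 and 5.42 in the Trim27 libraries, against 4.49, 4.71, 4.6 and 4.66 in the GFP libraries. Both ratios were higher in every Trim27 library than in any GFP library, and without Lars2 the mitochondrial sum was 661 ± 26.4 CPM in the Trim27 group and 823 ± 22.2 CPM in the GFP group. These are sums over a chosen list and were not tested. They rest on TMM scaling and were not computed with library size alone. Under library size alone the typical gene stood at 0.44 on the log2 scale, instead of 0.14. The direction of the cytosolic sum and of the mitochondrial sum without Lars2 may therefore depend on the scaling. The ratios of the sums do not, because scaling multiplies all genes of a library alike.

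Cytosolic and mitochondrial genes for the same amino acid were then set side by side as the log2 ratio of their CPM in each library, with Farsa for phenylalanine and Eprs for both glutamate and proline, which gave 16 pairs. The ratio did not overlap between the groups in 15 pairs, higher in 8 and lower in 7 in the Trim27 group, and the median difference was 0.28. That median lay between widely spaced pairs, proline at 0.10 and serine at 0.47. Of the pairs, 9 had an enzyme that rose and one that fell, and in 4 both changed the same way. The ratios were not tested, and the counts stand beside a background where 80.7% of single genes did not overlap.

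The pairs with the largest gain of the cytosolic gene were those of asparagine, valine and histidine. For asparagine the log2 ratio of Nars to Nars2 was 3.93, 4.87, 4.28 and 4.06 in the Trim27 libraries, against 1.68, 1.44, 1.46 and 1.51 in the GFP libraries. For valine the ratio of Vars to Vars2 was 5.24, 5.20, 5.09 and 5.14 in the Trim27 libraries, against 2.77, 2.94, 2.94 and 2.84 in the GFP libraries, while Vars alone overlapped between the groups. For histidine the ratio of Hars to Hars2 was 4.51, 4.83, 4.63 and 3.94 in the Trim27 libraries, against 2.04, 2.18, 2.27 and 2.34 in the GFP libraries. All 3 pairs were far apart between the groups. The reverse was found for tryptophan, phenylalanine and alanine. The ratio of Wars to Wars2 was 2.84, 2.79, 2.91 and 2.58 in the Trim27 libraries, against 7.26, 7.94, 6.43 and 9.54 in the GFP libraries, where Wars2 had 12 counts in all. For phenylalanine the ratio of Farsa to Fars2 was 2.90, 3.02, 2.88 and 2.91 in the Trim27 libraries, against 4.65, 5.21, 5.08 and 5.52 in the GFP libraries. The ratio of Aars to Aars2 was 0.56, 0.56, 0.65 and 0.51 in the Trim27 libraries, against 1.84, 2.10, 2.02 and 1.89 in the GFP libraries, and here the cytosolic gene fell while the mitochondrial gene rose. For cysteine the sign of the count ratio differed, since the ratio of Cars to Cars2 was 0.34, 0.10, 0.10 and 0.32 in the Trim27 libraries, against -1.27, -1.15, -1.29 and -1.22 in the GFP libraries. Cars thus had more counts than Cars2 in every Trim27 library and fewer in every GFP library. Per kilobase of exon the mean ratio was below 0 in both, at -0.55 in the Trim27 group and -1.99 in the GFP group. With that correction the sign differed instead for alanine (-0.21 in the Trim27 group and 1.18 in the GFP group) and serine (0.24 and -0.22). The leucine pair was the one with the mitochondrial gene far above the cytosolic gene in every library, at -2.57, -2.59, -2.29 and -2.74 in the Trim27 libraries, against -4.24, -3.94, -4.09 and -4.39 in the GFP libraries. The proline pair, Eprs with Pars2, overlapped between the groups (3.37 ± 0.20 in the Trim27 group and 3.27 ± 0.11 in the GFP group, SD, n = 4 each). Corrected for exon length, the cytosolic gene was the higher one in 13 of 16 pairs in the Trim27 group and in 13 of 16 in the GFP group.

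**Figure D3:**
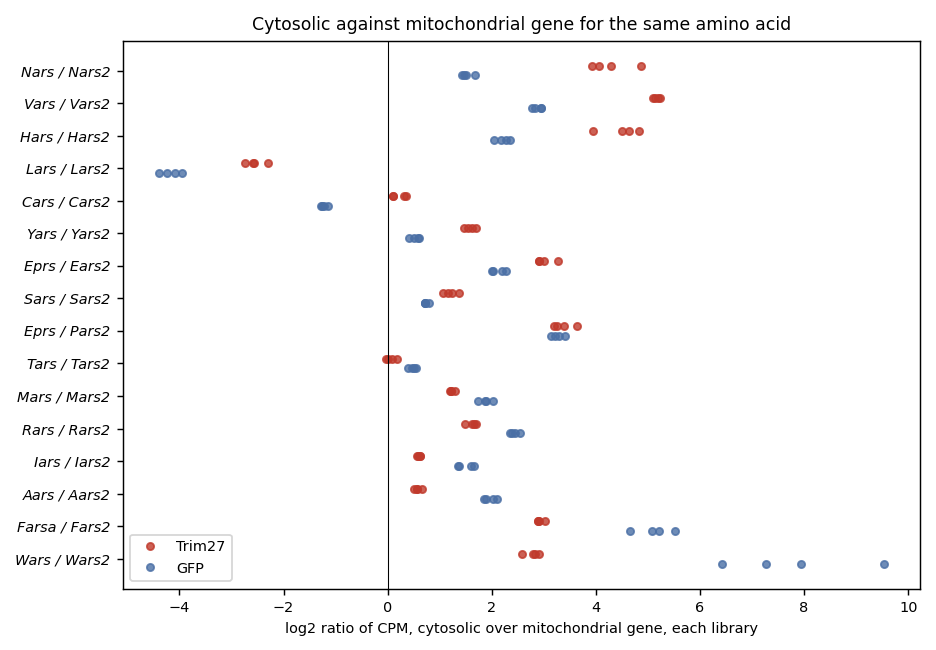
Log2 ratio of CPM of the cytosolic to the mitochondrial gene for 16 amino acids (horizontal axis), with 1 point for each Trim27 library (red, upper) and each GFP library (blue, lower). The groups are apart in every pair but Eprs and Pars2, with the Trim27 libraries to the right in 8 pairs and to the left in 7.

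The size of the changes was tied to abundance across all genes, and the cytosolic and mitochondrial enzymes differ in abundance. From 6 to 8 mean log2 CPM lay 15 cytosolic and 3 mitochondrial enzymes, and from 4 to 6 lay 2 cytosolic and 9 mitochondrial ones. Of all 1909 genes from 6 to 8 log2 CPM, 16.1% had a called change of at least 2-fold, and the median absolute log2 fold change was 0.48. The 15 cytosolic enzymes there had a median of 0.45, and 1 of them, Aars, changed at least 2-fold. Of all 3129 genes from 4 to 6 log2 CPM, 33.4% changed at least 2-fold with a median absolute value of 0.71. The 9 mitochondrial enzymes there had a median of 1.08, and 6 of them changed at least 2-fold, while the 2 cytosolic ones had a median of 0.90. The order was not the same at every level. From 6 to 8 log2 CPM the 3 mitochondrial enzymes had a median of 0.31, below the 15 cytosolic ones and below all genes there, and from 2 to 4 log2 CPM the 2 mitochondrial ones had 1.06, beside 1.29 over all 2582 genes. From 8 to 10 log2 CPM the 3 cytosolic enzymes had a median of 0.11 and Lars2 had 1.60, beside 0.44 over 527 genes. Transcript length also moved with the change over all genes, and the median change on the log2 scale was -0.81 up to 500 exonic bases and 0.84 above 8000. The median exonic length was 2918 bases for the cytosolic enzymes and 3342.5 bases for the mitochondrial ones. The part of length and abundance in the difference between the compartments was not tested. With the length trend removed the median difference between the pairs was 0.04 instead of 0.28. The medians of the compartments were then -0.31 (cytosolic) and -0.83 (mitochondrial), instead of 0.02 and -0.55.

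**Figure D4:**
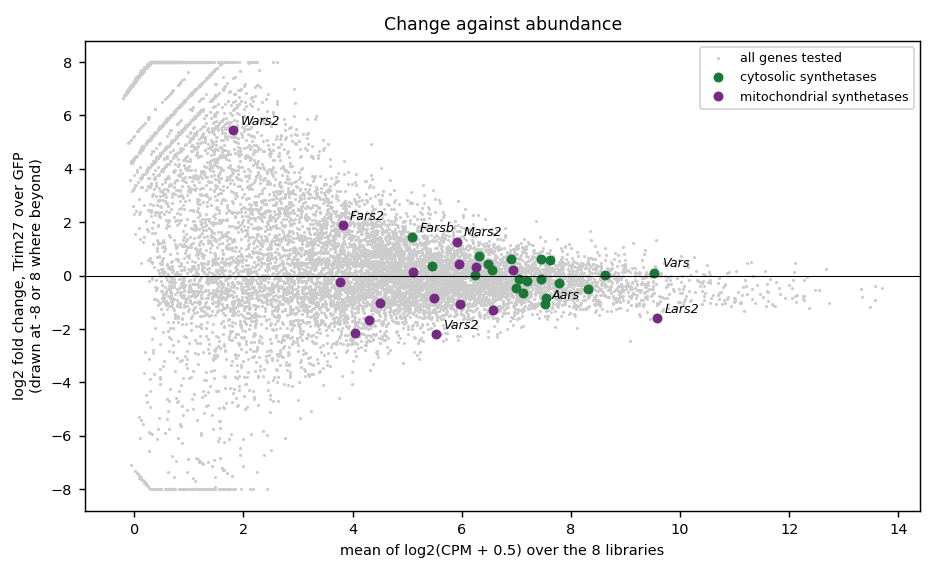
Log2 fold change, Trim27 over GFP (vertical axis), against mean log2(CPM + 0.5) over the 8 libraries (horizontal axis) for all 11040 genes tested (grey), the 20 cytosolic enzymes (green) and the 16 mitochondrial enzymes (purple). The cytosolic enzymes sit at the more abundant end within 1.43 of 0, the mitochondrial ones spread further, and Lars2 lies near Vars in abundance but at -1.60.

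Genes that work beside the enzymes were also followed. Of 19 tRNA charging partners, all of which were tested, 5 rose and 8 fell, at a median log2 fold change of 0.03, and the other 6 did not pass. These are 26.3% higher and 42.1% lower, beside 47.5% and 38% over all genes. Under library size alone 10 rose and 7 fell, and leaving out 1 library gave a median of -0.08 to 0.06. The scaffold genes of the multisynthetase complex split. Aimp1 had 128, 121, 119 and 119.7 CPM in the Trim27 libraries, against 289, 288, 305 and 304 CPM in the GFP libraries, and Aimp2 had 73.1, 77.2, 73.7 and 71.5 CPM in the Trim27 libraries, against 172, 148, 160 and 156 CPM in the GFP libraries. Both were over 2-fold lower in the Trim27 group, without overlap (log2 fold changes -1.28, SE 0.05 and -1.10, SE 0.06), but 487 of the 1193 exonic bases of Aimp2 are shared with Eif2ak1 on the opposite strand. Eef1e1, the third scaffold gene, had 60.7, 59.1, 52.8 and 54.7 CPM in the Trim27 libraries, against 26.4, 27.9, 27.6 and 33.3 CPM in the GFP libraries, a rise of 0.98 (SE 0.09) on the log2 scale. Xpot, which carries tRNA out of the nucleus, had 112, 92.1, 94 and 101 CPM in the Trim27 libraries, against 15.9, 18.3, 16.3 and 16.9 CPM in the GFP libraries, a 5.93-fold rise. Aarsd1, an editor of mischarged alanine tRNA, fell to 247 ± 12.9 CPM in the Trim27 group, against 549.5 ± 18.4 CPM in the GFP group (SD, n = 4 each). Its log2 fold change of -1.15 stands beside -1.08 for Aars, but 1250 of its 1516 exonic bases are shared with Gm27029 on the same strand. Mtfmt, which formylates the initiator methionine tRNA of mitochondria, fell (14.53 ± 0.858 against 46.8 ± 3.48 CPM in the Trim27 and GFP groups, log2 fold change -1.69, SE 0.10), while Mars2, which charges that tRNA, rose. Tarsl2, a further threonyl enzyme, had 722 counts over the Trim27 libraries and 4 over the GFP libraries, and it passed the filter only through the Trim27 libraries.

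Amino acid response genes moved in both directions. Of 26 genes, 22 could be tested, of which 11 rose and 9 fell, at a median log2 fold change of 0.17. These are 50% higher and 40.9% lower, beside 47.5% and 38% over all genes. Among the rises, Eif2ak4 (816 counts over the Trim27 libraries and 28 over the GFP libraries) and Slc7a11 (1082 and 25) passed the filter only through the Trim27 libraries. The median of the list was -0.05 to -0.01 when any 1 library was left out and 23 genes were tested, and under library size alone 13 rose and 4 fell. Atf4, the transcription factor of the response, which is controlled mainly at translation, had 834, 845, 860.1 and 838 CPM in the Trim27 libraries, against 844, 865, 866 and 842 CPM in the GFP libraries. Its groups overlapped, with a log2 fold change of -0.02 (adjusted p = 0.716 by edgeR), which was 0.29 (adjusted p = 1.0e-07) under library size alone. Ddit3, which encodes the stress factor CHOP, had 3.79, 4.51, 4.8 and 2.55 CPM in the Trim27 libraries, against 26.4, 24.1, 24.3 and 27.4 CPM in the GFP libraries, a 6.39-fold fall without overlap. Chac1, a glutathione-degrading enzyme and target of the same pathway, fell 7.7-fold (7.61 ± 0.46 against 59 ± 1.18 CPM in the Trim27 and GFP groups). Asns, the asparagine synthetase of amino acid metabolism and a classic ATF4 target, rose instead, with 487, 478, 479.7 and 474 CPM in the Trim27 libraries, against 236, 288, 264 and 261 CPM in the GFP libraries (log2 fold change 0.87, SE 0.05). The amino acid transporter genes Slc38a2 (90.03 ± 8.55 against 5.49 ± 1.93 CPM) and Slc7a1 (73.7 ± 4.5 against 21.5 ± 2.12 CPM) rose as well, as did Mthfd2, an enzyme of mitochondrial one-carbon metabolism (227 ± 12.1 against 86.6 ± 8.05 CPM), in the Trim27 against the GFP group. The 5 synthetase genes with the TGATGNAA motif in their printed promoters held 4 falls (Aars, Iars, Tars and Gars) and 1 rise (Yars). Over all 20 cytosolic genes 9 rose and 9 fell. Only 13 of those 20 promoters were searched. The genes left out were Cars, Hars, Nars, Vars and Wars, which rose, Rars, which fell, and Lars, which did not pass. Whether the motif goes with the direction was not tested.

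**Figure D5:**
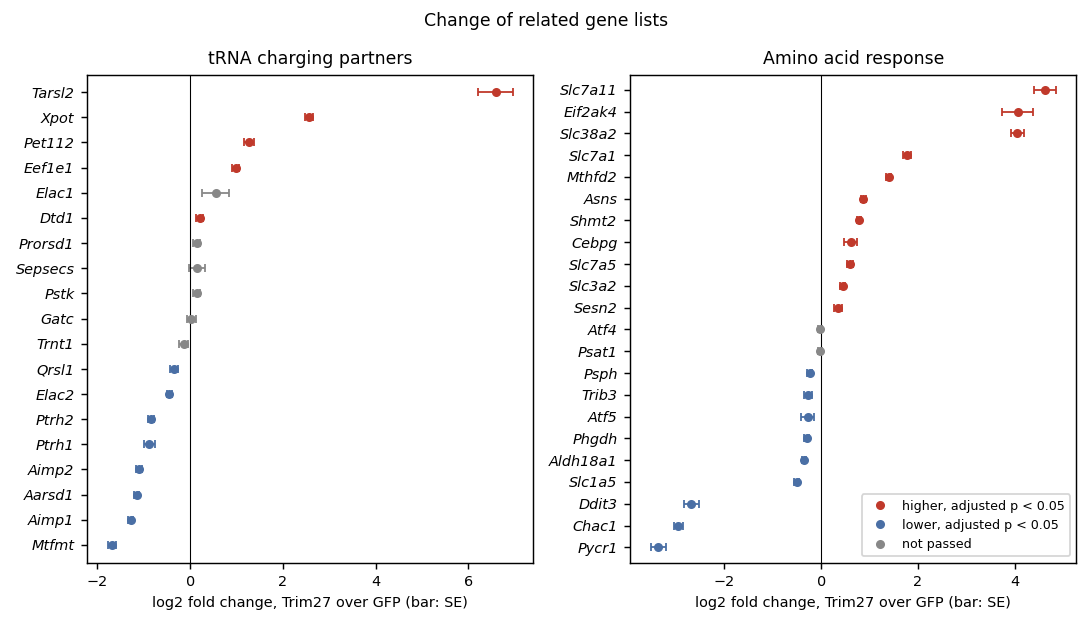
Log2 fold change, Trim27 over GFP (horizontal axis, bars are standard errors, 4 libraries in each group), of the 19 tRNA charging partners on the left and of the 22 tested amino acid response genes on the right. Both lists spread to either side of 0, with medians of 0.03 and 0.17.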

How the data were processed

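RNA of 8 sorted myeloid progenitor libraries, 4 per group, was sequenced as polyadenylated RNA after conversion to double-stranded DNA and a transposase-based library kit, per the labels' protocols. Raw counts per gene symbol were deposited by the authors as 1 table. The tools bcl2fastq, HISAT2 and featureCounts, and NCBIM37 as build, are listed in the submitters' processing notes without their roles. No version, annotation, strand setting or treatment of multiple matches is stated there. One line without a name held 0 counts and was left out. Counts from 1 to 10 were even in 64.7% to 72% of cases, and whether each end of a pair was counted is not stated.

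The test was run in edgeR 4.0.16 under R 4.3.3 (filterByExpr with minimum count 10 and total 15, TMM, robust quasi-likelihood test, all 8 libraries, no covariate, 2-sided, threshold 0.05 on the Benjamini-Hochberg adjusted p). Standard errors came from the log2 fold change and its F statistic, and 95% intervals span 1.96 of them to either side. Ratios of pairs used CPM + 0.1. Exon lengths and overlaps came from the GENCODE vM21 basic annotation, a later build, matched by symbol for 99.62% of the tested genes. The 36 members, the lists of markers, tRNA charging partners and amino acid response genes, and the tests were chosen with earlier results of these data known. Values in every library were given for the 5 largest cytosolic and 4 largest mitochondrial called changes in each direction, for Gars and Kars, and for the genes of the lists the text turns on. From the partner list the 3 scaffold genes and the 4 others with the smallest p are named, and from the amino acid response list Atf4, Ddit3, Asns and 4 others. One gene was left out of the partner list and its counts, and is not reported here. The fit was tested on simulated data in which most genes did not differ, unlike the data here. Alternatives were other scalings and filters, DESeq2 1.42.0, limma-voom 3.58.1, a replicate block, a stricter threshold of 0.01, removal of length trends (lowess span 0.3), and each library left out. Halved counts and genes without exon overlap with another counted gene were added after seeing the data.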

Additional observations from a re-analysis of the deposited data

Results flagged for a closer look

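In 74 groups of 4 values (the 36 synthetase genes and Trim27, in each group), 4 held a library whose gap to the nearest other was large for the group's range by Dixon's 95% criterion. Chance alone flags about 1 in 20 groups. Farsa in Trim27 replicate 1 was at 176.3 CPM, below 206.9 to 211.4 CPM in the other Trim27 libraries. Gars in the same library was at 152.9 CPM, below 169 to 171.4 CPM. Lars in GFP replicate 2 was at 86.08 CPM, above 70.12 to 72.1 CPM in the other GFP libraries. Yars2 in Trim27 replicate 2 was at 31.6 CPM, below 33.63 to 34.03 CPM. Leaving out these libraries did not change the calls of Farsa, Gars, Lars or Yars2.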

How the results depend on the processing

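Of 684 values of single synthetase genes under alternatives, 633 kept direction and side of the threshold, 23 lost the call, 8 gained one and 20 changed sign. The cause of these changes was not tested. The stricter threshold of 0.01 was not among these values. It left 8 cytosolic rises and 7 falls, without Vars, Eprs and Gars, and 6 mitochondrial rises and 8 falls. Library size alone gave 5 cytosolic falls (median 0.32), a mitochondrial median of -0.24, 10 partner rises (median 0.33) and 4 amino acid response falls (median 0.47), and turned the sign of Eprs (0.16), Farsa (0.020), Gars (0.16), Tars (0.095), Pars2 (0.066) and Atf4 (0.29). Upper-quartile factors gave a cytosolic median of 0.067 and Atf4 at 0.032. Atf4 was 0.011 with DESeq2 size factors and by the DESeq2 Wald test, 0.013 with no filter and 0.0005 with at least 10 CPM in 4 libraries. That filter left 3453 rises over all genes and a partner median of -0.12, and no filter gave an amino acid response median of 0.38. With the length trend removed the medians were -0.31 (cytosolic), -0.83 (mitochondrial, 3 rises), -0.36 (partners) and -0.018 (amino acid response), the pair difference was 0.036, and Kars (-0.14), Lars (-0.39), Vars (-0.30), Yars (-0.044), Aars2 (-0.024), Iars2 (-0.18) and Tars2 (-0.21) turned sign. With the trend of abundant genes removed these were 0.10, -0.48, 0.17, 0.30 and 0.22, and Atf4 was at 0.18.

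Leaving out 1 library gave 5100 to 5351 rises and 4118 to 4334 falls over all genes, 8 to 9 cytosolic rises and 8 to 9 falls (median -0.033 to 0.053), 6 mitochondrial rises and 8 falls (median -0.61 to -0.54), 4 to 6 partner rises and 8 to 9 falls (median -0.081 to 0.056), 11 amino acid response rises and 9 to 10 falls (median -0.046 to -0.0063) and a pair difference of 0.21 to 0.32. Lars lay between -0.049 and 0.087 and Kars between -0.031 and 0.041. Genes without exon overlap with another counted gene gave 5 rises and 9 falls of 16 cytosolic enzymes (median -0.14), 4 rises and 5 falls of 11 mitochondrial ones (median -0.24), a partner median of 0.14 and an amino acid response median of 0.40. Aars and Aarsd1 stayed in these sets, because Exosc6 and Gm27029, whose exons they share, are not among the counted genes. Halved counts gave the same numbers of synthetase calls. Replicate numbers did not pair the libraries (correlations of same-numbered deviations -0.06 to 0.03). With the replicate block 5133 genes rose and 4027 fell, among them 8 and 9 cytosolic and 6 and 8 mitochondrial enzymes, and among synthetase genes only the call of Vars was lost.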

Other observations

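Other motifs were counted in the same promoters. The E-box CACGTG, read on both strands, was in 4 of 13 cytosolic promoters (Aars, Farsb, Iars and Tars) and 1 of 14 mitochondrial ones (Ears2), against 7.15% of all promoters. The NRF1 motif was in 3 of 13 (Farsb, Kars and Tars) and 2 of 14 (Iars2 and Mars2), against 4.6%. The ETS motif CCGGAAG was in 5 of 13 (Farsa, Gars, Kars, Mars and Sars) and 4 of 14 (Cars2, Mars2, Rars2 and Sars2), against 8.86%. In each of the 3 cytosolic lists at least 1 gene rose and at least 1 fell. Ears2 fell, Iars2 and Mars2 rose, and Cars2 and Sars2 fell.

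Per kilobase of exon, Vars (186 CPM in the Trim27 group and 172 CPM in the GFP group) and Kars (177 and 174 CPM) led the cytosolic enzymes in both groups. At the low end were Cars in the Trim27 group (15.3 CPM) and Farsb in the GFP group (9.4 CPM). Aars was 18th of the 20 cytosolic genes in the Trim27 group and 10th in the GFP group. Among the mitochondrial enzymes the lowest were Nars2 in the Trim27 group (1.83 CPM) and Wars2 in the GFP group (0.0786 CPM).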
